A study of Danio rerio with 4 samples.

Results

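The genes described here are transcription factors, clock genes and a Notch ligand of the posterior and presomitic mesoderm, taken by symbol from a list of 10 (tbx16, tbx6, msgn1, cdx4, cdx1b, sp5l, sp5a, her1, her7 and dlc). Of the 10, 8 had a row among the 32266 gene rows of the count table and all 8 had at least 1 count. The symbols cdx1b and sp5l were matched to no row and were not analysed here. The row for sp5a carries the human-style symbol SP5 and was taken as sp5a because sp5l has an identifier of its own in the symbol table. The embryos were zebrafish of the AB strain, taken late in gastrulation at 9 hours post fertilization (hpf). One group of embryos carried scattered cells with β-catCA, a constitutively active β-catenin that switches on Wnt target genes in the cells that hold it, and the control embryos, called GFP-control mosaics below (their sorted cells too are GFP-negative), carried scattered cells with green fluorescent protein (GFP) alone. From both kinds of mosaic the GFP-negative cells were sorted, so the cells measured are the unmarked cells around the β-catCA or GFP cells, at any distance from them. Each group had 2 lots, and each lot gave 1 CEL-Seq2 library. The method reads the 3′ end of transcripts and counts single molecules by unique molecular identifiers (UMIs), so no length correction is needed between genes. Counts that fell on no annotated gene made up 31.9% and 22.0% of all counts in β-catCA lots 1 and 2. They made up 36.0% and 34.6% in the GFP-control lots. How fully the 3′ end of each gene is annotated was not tested, so rankings and ratios between genes compare counted UMIs only.

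The presomitic mesoderm is the unsegmented tissue on either side of the tail end of the axis, from which the somites bud off. Wnt and Fgf signals at the embryonic margin hold its progenitors in a posterior state through T-box, Cdx and Sp factors, and msgn1 with tbx16 then moves cells on towards presomitic fate. In that tissue Her repressors switch their own genes off in cycles, and Delta ligands keep neighbouring cells in step. Because several of these genes are known Wnt targets, their level in unmarked cells beside Wnt-activated cells is one of the questions the comparison of the 2 mosaics can address.

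Libraries held 65098 and 8403 gene UMIs in β-catCA lots 1 and 2, and 61304 and 59260 in GFP-control lots 1 and 2. Levels are given as counts per 1000000 gene UMIs (CPM) after trimmed-mean (TMM) scaling, on which 1 UMI stands for 15.25 and 124.5 CPM in the β-catCA lots and for 16.1 and 16.5 CPM in the GFP-control lots. β-catCA lot 2 is thus a shallow library, and a count of 0 in it still allows up to 3 UMIs, or 373.4 CPM. One row without a symbol took 19.0% of the gene UMIs of that lot against 5.17% to 6.22% in the other 3 libraries. Leaving it out left the summed change of the 8 genes at -0.38 on the log2 scale. Floors and the exact intervals of levels and ratios cover counting error only. Intervals of log2 changes come from the edgeR fit and also take in the spread between the lots. Nothing in the labels ties the lots to separate clutches; p-values therefore reflect the spread between the lots alone, and that spread may be technical.

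The 8 genes together were well expressed in the GFP-negative cells of the GFP-control mosaics. They held 267 and 335 UMIs in GFP-control lots 1 and 2, and 282 and 26 in β-catCA lots 1 and 2, 910 in all. Most of this signal came from a pair of early regulators: msgn1 supplied 38.7% of the 910 UMIs and tbx16 supplied 29.2%. In the GFP-control mosaics, msgn1 had more UMIs than 99.1% of the genes detected there, and tbx16 more than 98.8%. The ligand and the repressors of the clock lay at the other end, with 4.95% of the summed UMIs from her7, 0.879% from her1 and 0.549% from dlc.

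Ordered by mean GFP-control level, msgn1 came first with 1843 ± 444 CPM and tbx16 next with 1474 ± 81.0 CPM (mean ± SD of 2 lots each). The GFP-control lots of these genes overlapped in level, though msgn1 was above tbx16 within each GFP-control lot. Next came cdx4 with 529 ± 26.1 CPM, sp5a with 475 ± 329.9 CPM, tbx6 with 278 ± 143 CPM and her7 with 244 ± 65.2 CPM (mean ± SD of 2 lots each). Neighbours within this middle block overlapped as well. Breaks between neighbours, with both GFP-control lots of the higher gene above both of the lower, stood between tbx16 and cdx4 and between her7 and her1. Last were her1 with 40.6 ± 10.9 CPM and dlc with 24.1 ± 34.2 CPM (mean ± SD of 2 lots each), no higher than the floor of 3 UMIs in either GFP-control lot.

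**Figure D1:**
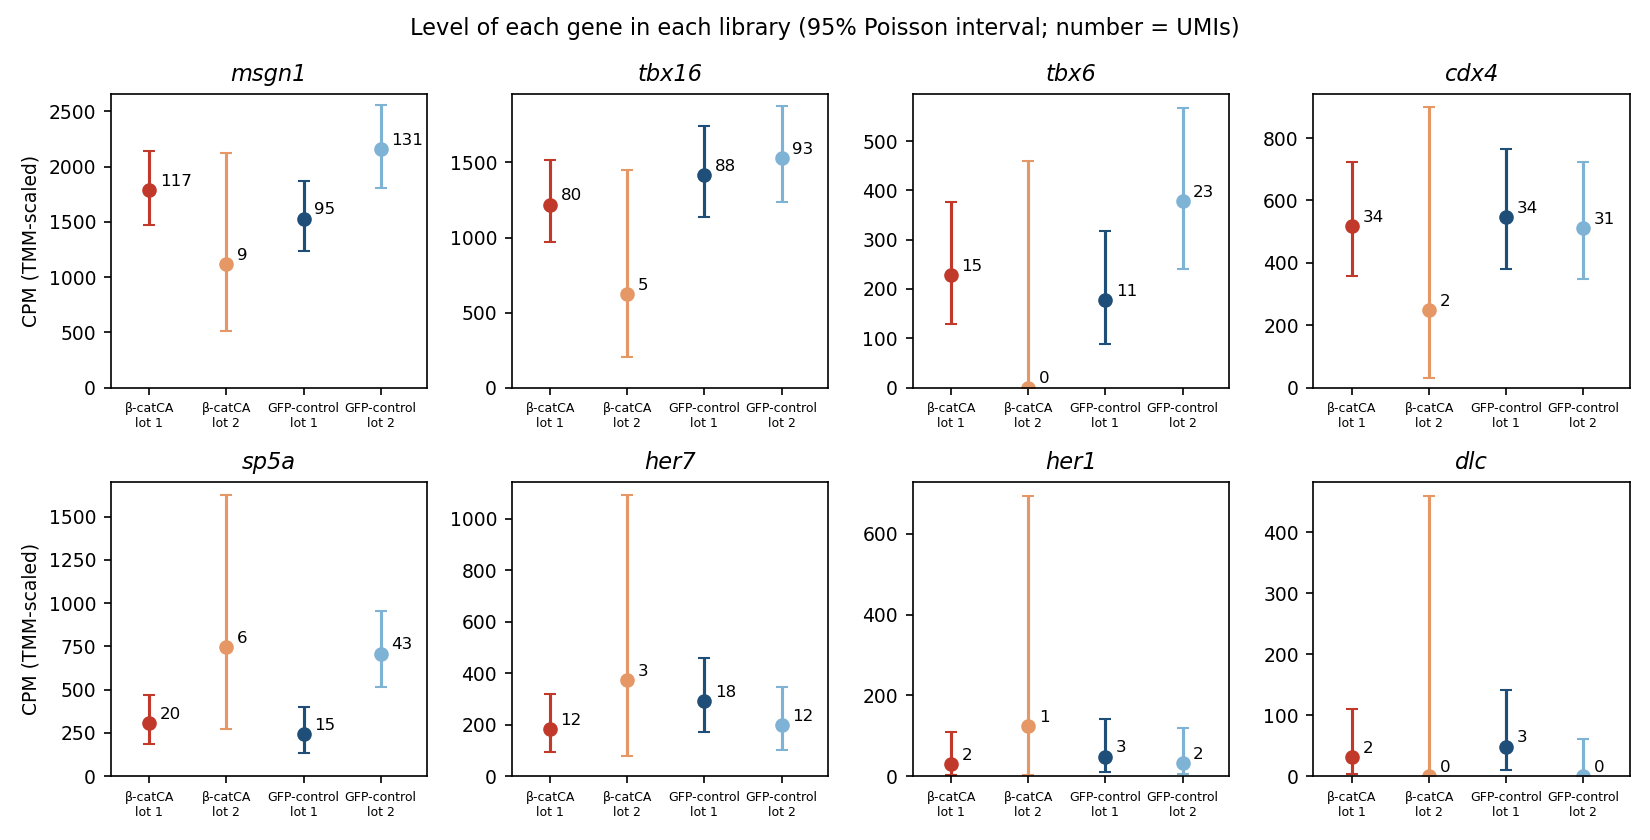
Each panel plots 1 gene, with the level in CPM (TMM-scaled) on the vertical axis and the 4 libraries on the horizontal axis; bars are 95% exact Poisson intervals and the printed number is the UMI count. The intervals of β-catCA lot 2 are wide, and tbx16 is the only one of the 8 genes with both β-catCA points below both GFP-control points.

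The T-box gene tbx16 (ENSDARG00000007329), needed for mesoderm progenitors to migrate out of the margin, had 80 UMIs in β-catCA lot 1, 5 in β-catCA lot 2, 88 in GFP-control lot 1 and 93 in GFP-control lot 2. These stand for 1220.0, 622.4, 1417 and 1531 CPM. Both β-catCA lots were below both GFP-control lots, and tbx16 was the 1 gene of the 8 with this pattern, which 23.6% of the 1071 genes tested also had in the same direction. The fitted log2 change, β-catCA mosaic minus GFP-control mosaic, was -0.44 (standard error, SE, 0.30; adjusted p = 0.67 by edgeR). Its 95% interval ran from -1.04 to 0.16, which spans β-catCA levels from 0.486 to 1.12 times the GFP-control level. The 5 UMIs of β-catCA lot 2 compare with 11.8 UMIs that the mean GFP-control level would give at that depth, and the 80 UMIs of lot 1 with 96.7. With the shallow lot as the only β-catCA library the change was -1.26, and with lot 1 as the only one it was -0.29, and it passed the threshold in neither case (adjusted p = 0.50 and 0.78 by edgeR). In bulk RNA of sorted cells, fewer cells of a type and less RNA per cell cannot be told apart.

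The bHLH factor gene msgn1 (ENSDARG00000070546), which drives progenitors into presomitic fate, had 117 and 9 UMIs in β-catCA lots 1 and 2 and 95 and 131 in GFP-control lots 1 and 2. On the CPM scale these were 1784, 1120.3, 1529 and 2157. β-catCA lot 1 stood between the GFP-control lots and lot 2 stood below them, so the groups overlapped. The log2 change was -0.19 (95% interval -0.77 to 0.38; adjusted p = 0.90 by edgeR). That interval, the narrowest of the 6 genes that passed the filter on low counts, spans β-catCA levels from 0.587 to 1.30 times the GFP-control level. Without GFP-control lot 2 the fitted change of msgn1 was 0.06.

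The T-box gene tbx6 (ENSDARG00000011785), which acts later than tbx16, in presomitic cells about to form somites, had 15 and 0 UMIs in β-catCA lots 1 and 2 and 11 and 23 in GFP-control lots 1 and 2. β-catCA lot 1, at 229 CPM, lay between the GFP-control lots at 177 and 379 CPM. The mean GFP-control level would give 2.23 UMIs at the depth of β-catCA lot 2, and the floor of that lot lies above the GFP-control mean, so a loss of tbx6 there was not detectable at this depth. The log2 change was -0.48 (95% interval -1.61 to 0.66; adjusted p = 0.87 by edgeR), and it was 0.19 without GFP-control lot 2.

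UMIs of msgn1 outnumbered those of tbx16 in all 4 libraries. The ratio of msgn1 to tbx16 was 1.46 in β-catCA lot 1 and 1.80 in β-catCA lot 2, and 1.08 and 1.41 in GFP-control lots 1 and 2. The exact 95% intervals of the 4 ratios all overlapped. They ran from 1.09 to 1.97 in β-catCA lot 1 and from 0.542 to 6.84 in the shallow lot. In GFP-control lots 1 and 2 they ran from 0.799 to 1.46 and from 1.07 to 1.86. No difference between the libraries in the balance of these genes was therefore detectable. In β-catCA lot 1 and GFP-control lot 2 the interval lay above 1. tbx6 had 0.188 times the UMIs of tbx16 in β-catCA lot 1 and 0.125 and 0.247 times in GFP-control lots 1 and 2.

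**Figure D2:**
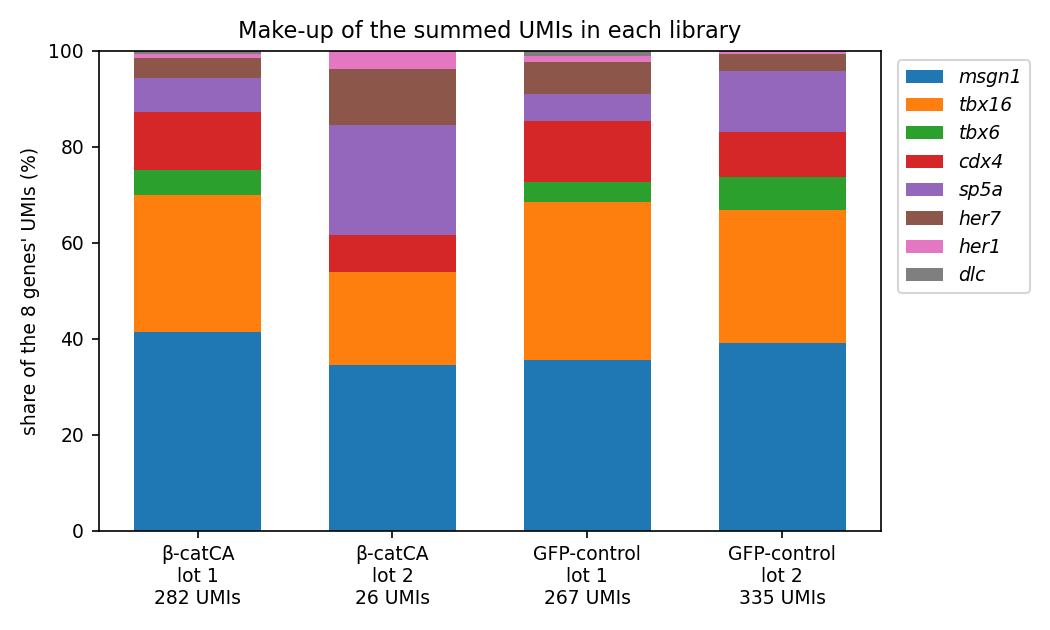
Stacked bars give the share (%) of the 8 genes' UMIs that each gene supplied in each library, with the summed UMIs under each bar. msgn1 is the largest segment in all 4 libraries, from 34.6% to 41.5%; the bar of β-catCA lot 2 rests on 26 UMIs.

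The homeobox gene cdx4 (ENSDARG00000036292), which sets posterior identity upstream of Hox genes, was the steadiest of the 8 among the deep libraries. It had 34 UMIs in β-catCA lot 1, 34 in GFP-control lot 1 and 31 in GFP-control lot 2, or 518, 547 and 510.4 CPM. β-catCA lot 2 held 2 UMIs of cdx4, below its floor, where 4.25 would match the mean GFP-control level. The log2 change was -0.16 (95% interval -0.97 to 0.65; adjusted p = 0.95 by edgeR). Without β-catCA lot 2 it was -0.04, and without β-catCA lot 1 it was -1.10, which rests on those 2 UMIs.

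The zinc finger gene sp5a (ENSDARG00000076571), a direct Wnt target that relays Wnt signals in mesoderm, differed between the GFP-control lots. It had 20 UMIs in β-catCA lot 1, 6 in β-catCA lot 2, 15 in GFP-control lot 1 and 43 in GFP-control lot 2, or 305, 747, 241 and 708 CPM. The GFP-control lots differed beyond counting error, with exact 95% Poisson intervals from 135 to 398 CPM and from 512 to 954 CPM, whereas those of the β-catCA lots overlapped, from 186 to 471 CPM and, on 6 UMIs, from 274 to 1626 CPM. The fitted log2 change was -0.33 (95% interval -1.32 to 0.66; adjusted p = 0.90 by edgeR), whereas mean levels pointed the other way, with 526 CPM for the β-catCA mosaics and 475 CPM for the GFP-control mosaics. Its sign turned to 0.64 without β-catCA lot 1 and to 0.62 without GFP-control lot 2. In β-catCA lot 2, sp5a had 3.0 times the UMIs of cdx4, and in the other 3 libraries between 0.441 and 1.39 times, but the exact 95% interval in lot 2 ran from 0.536 to 30.4.

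Of the clock genes, her7 lay in the middle block of levels, and her1 and dlc were sparse. The Her repressor gene her7 (ENSDARG00000017917) had 12 and 3 UMIs in β-catCA lots 1 and 2 and 18 and 12 in GFP-control lots 1 and 2, or 183, 373, 290 and 198 CPM. The lots of the groups interleaved, and the log2 change was -0.22 (95% interval -1.33 to 0.88; adjusted p = 0.95 by edgeR). Mean levels of her7 pointed the other way, with 278 ± 135 CPM for the β-catCA mosaics and 244 ± 65.2 CPM for the GFP-control mosaics (mean ± SD of 2 lots each). Its partner repressor her1 (ENSDARG00000014722) had 2 and 1 UMIs in β-catCA lots 1 and 2 and 3 and 2 in GFP-control lots 1 and 2. The Notch ligand gene dlc (ENSDARG00000002336), which encodes deltaC and couples the clock between cells, had 2 and 0 UMIs in β-catCA lots 1 and 2 and 3 and 0 in the GFP-control lots. No library held more than 3 UMIs of her1 or dlc, so no fold is given for them. In 3 libraries her7 had 6.0 times the UMIs of her1, from 12 against 2 in β-catCA lot 1, 18 against 3 in GFP-control lot 1 and 12 against 2 in GFP-control lot 2. In β-catCA lot 2 the ratio was 3.0, from 3 UMIs against 1. These counts are small, and the exact 95% interval in GFP-control lot 1 ran from 1.75 to 31.8. The her1 and her7 genes lie near each other on chromosome 5 with 1 annotated gene between them in the RefSeq annotation of GRCz12tu, a later build than that of the counts.

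Across all genes, edgeR's quasi-likelihood test called 9 of 1071 genes, 0.84%, at an adjusted p under 0.05. Of the 8 genes, 6 passed the filter on low counts and 2 (her1 and dlc) were read from the fit without it, which called 0% of 8640 genes. Among the 8, edgeR called 0, and DESeq2 and limma-voom also called 0. An unadjusted p below 0.05 was reached by 0 of the 8, against 10.5% of the genes in the filtered fit and 2.55%, or 220 genes, in the unfiltered one. All 6 genes that passed the filter had a negative fitted change, as did 51.8% of the genes tested. This held with the other scalings tried, but 1 of the 6 was positive without GFP-control lot 1 and with the lot number as a block, 2 were positive without β-catCA lot 1 and 3 without GFP-control lot 2. The median of the 6 was -0.28 against -0.03 over all 1071 genes. DESeq2 size factors shifted all genes together, to a median of -0.17 over all genes and of -0.43 for the 6. Single libraries moved the distance between these medians more: it was narrowest without GFP-control lot 2, at -0.09 for the 6 against -0.03 over all genes. Without GFP-control lot 1 the medians were -0.48 and -0.004. Without β-catCA lot 1 they were -0.92 and -0.25, but that -0.92 counts a tbx6 fit with 0 UMIs in the β-catCA group.

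**Figure D3:**
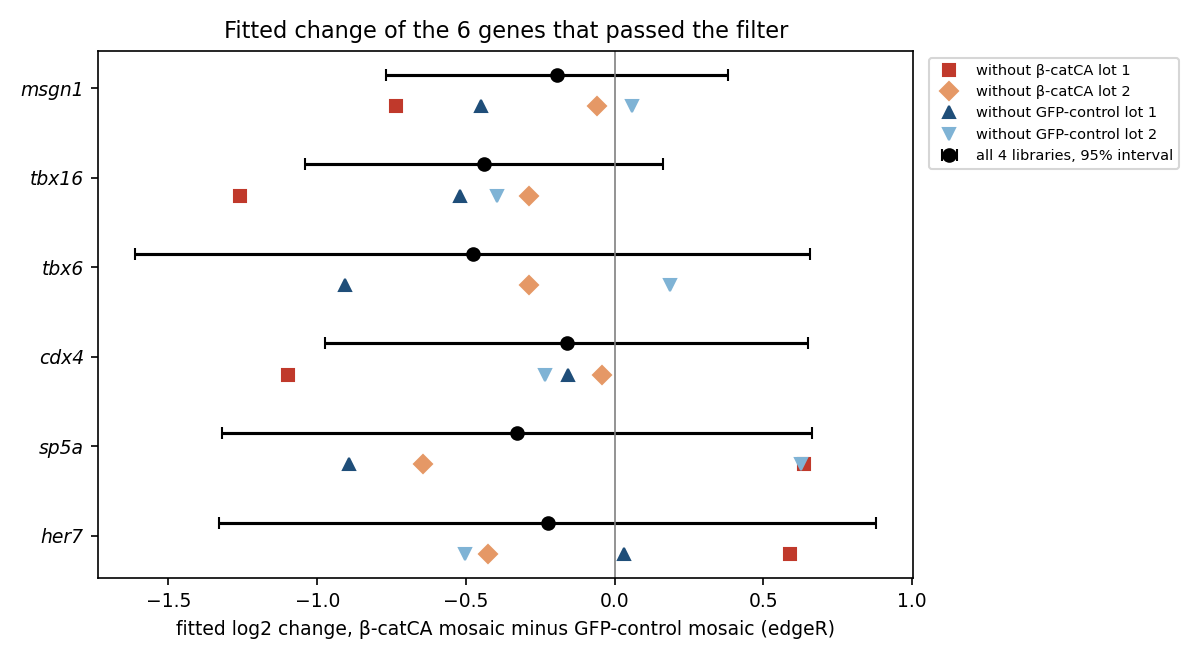
The horizontal axis is the fitted log2 change (β-catCA mosaic minus GFP-control mosaic, edgeR) of the 6 genes that passed the filter; black points are the fit to all 4 libraries with its 95% interval and coloured symbols are fits without 1 library. All 6 intervals span 0; tbx6 has no symbol without β-catCA lot 1, since the remaining β-catCA lot held 0 UMIs of it.

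Summed over the 8 genes, β-catCA lots 1 and 2 stood at 4300.35 and 3236 CPM and GFP-control lots 1 and 2 at 4299 and 5516 CPM. β-catCA lot 1 and GFP-control lot 1 were thus close to equal, while GFP-control lot 2 was highest and the shallow lot lowest. Between these 2 lots, msgn1 was higher in β-catCA lot 1, at 1784 against 1529 CPM, and tbx16 was lower, at 1220 against 1417 CPM. Of the 8 genes, only msgn1, the most abundant, was left out of the sum in turn. The other 7 genes summed to 2516 and 2116 CPM in β-catCA lots 1 and 2 and to 2769 and 3359 CPM in GFP-control lots 1 and 2. Without msgn1 both β-catCA lots were thus below both GFP-control lots, with a log2 ratio of -0.40. Exact 95% Poisson intervals of this sum overlapped, at 2147 to 2931 and 1233 to 3388 CPM in the β-catCA lots. In the GFP-control lots they were 2371 to 3215 and 2914 to 3853 CPM. Of the single genes tested, 23.6% had both β-catCA lots lower, and no such share was computed for sums of genes. For all 8, the exact 95% Poisson intervals were 3813 to 4833 CPM and 2114 to 4742 CPM in the β-catCA lots, and 3798 to 4846 CPM and 4941 to 6140 CPM in the GFP-control lots. GFP-control lot 2 therefore differed from GFP-control lot 1 beyond counting error. The β-catCA mosaics had a mean of 3768 ± 752 CPM and the GFP-control mosaics one of 4907 ± 861 CPM (mean ± SD of 2 lots each), a log2 ratio of -0.38. With DESeq2 size factors the ratio was -0.61 and with upper-quartile factors -0.26. It was -0.60 and -0.19 without β-catCA lot 1 and 2, and -0.55 and -0.19 without GFP-control lot 1 and 2. In share of all gene UMIs, the sum was 0.433% and 0.309% for β-catCA lots 1 and 2 and 0.436% and 0.565% for GFP-control lots 1 and 2. No p is given for the sum, since the members were chosen with results of these data known.

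Divided by role, the mesoderm regulators tbx16, tbx6 and msgn1 summed to 2488 ± 1054 CPM for the β-catCA group and 3595 ± 667 CPM for the GFP group (mean ± SD of 2 lots each). Of this difference, β-catCA lot 1 showed little: it had 3233 CPM, between GFP-control lot 1 at 3123 and GFP-control lot 2 at 4067 CPM, and the shallow lot had 1743 CPM from 14 UMIs. cdx4 and sp5a summed to 909.6 ± 122 CPM against 1004 ± 304 CPM. The clock genes her1, her7 and dlc summed to 371 ± 179.5 CPM against 308 ± 110.2 CPM, from 58 UMIs in all. β-catCA lot 1 had 244 CPM, and the shallow lot had 498 CPM from 4 UMIs. GFP-control lots 1 and 2 had 386 and 231 CPM. In each of the 3 role groups the lots of the 2 mosaics overlapped.

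Markers of other cell types moved between the libraries as well. The prechordal plate list, cells of the anterior midline, had 8 of 10 matched rows with a UMI (SIX3, for 1 of its 2 rows, and he1.1 were at 0). It summed to 2226 and 1992 CPM in the β-catCA lots and to 1707 and 906 CPM in GFP-control lots 1 and 2, the reverse order of the 8 genes in the GFP-control mosaics. FZD8, a Wnt receptor gene of that list named here after its values were seen, had 66 UMIs in GFP-control lot 1 and 17 in GFP-control lot 2. The whole list had 106 and 55 UMIs in these lots, so its gap between the GFP-control lots lay almost wholly in FZD8. The enveloping layer list, the outer epithelium, had 7 of 9 rows with a UMI (krt17 and cldnf at 0), and it summed to 2013 and 2738 CPM in the β-catCA lots and to 1127 and 839.8 CPM in the GFP-control lots. The keratin gene krt8 of the enveloping layer list, also named after its values were seen, was 1 of the 9 genes that edgeR called over the whole table and the 1 called gene of the marker lists. It had 79 and 13 UMIs in β-catCA lots 1 and 2 and 35 and 27 in the GFP-control lots, a log2 change of 1.37 (SE 0.35, adjusted p = 0.038 by edgeR). That call was lost with each of the other scalings and filters, with the lot block and by DESeq2. It was also lost without β-catCA lot 1 and without GFP-control lot 1 or 2, at log2 changes of 1.66, 1.53 and 1.20. The call was kept by limma-voom, without the most abundant row and without β-catCA lot 2 (log2 change 1.24). Over all alternatives the adjusted p ran from 0.013 by limma-voom to 0.995 by DESeq2. The epidermal ectoderm list, with 7 of 8 rows detected and krt18b at 0, summed to 579 and 124.5 CPM in the β-catCA lots and to 869 and 839.8 CPM in the GFP-control lots. Neural plate genes, with 10 of 10 rows detected, ranged from 1867 to 2013 CPM in the β-catCA lots and from 1729 to 2351 CPM in the GFP-control lots. Axial mesoderm and notochord genes, with 8 of 9 rows detected and FOXJ1 at 0, ranged from 1464 to 1743 CPM and from 1367 to 1546 CPM. Ventral mesoderm genes, with 9 of 10 rows detected and LMO2 at 0, ranged from 373 to 869 CPM and from 807 to 982 CPM. Endoderm genes, with 8 of 8 rows detected, ranged from 366 to 498 CPM and from 543 to 692 CPM, and germ cell genes had 9 UMIs in all, with DDX4 and gra at 0. The part of these cell types in the values of the 8 genes was not tested.

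**Figure D4:**
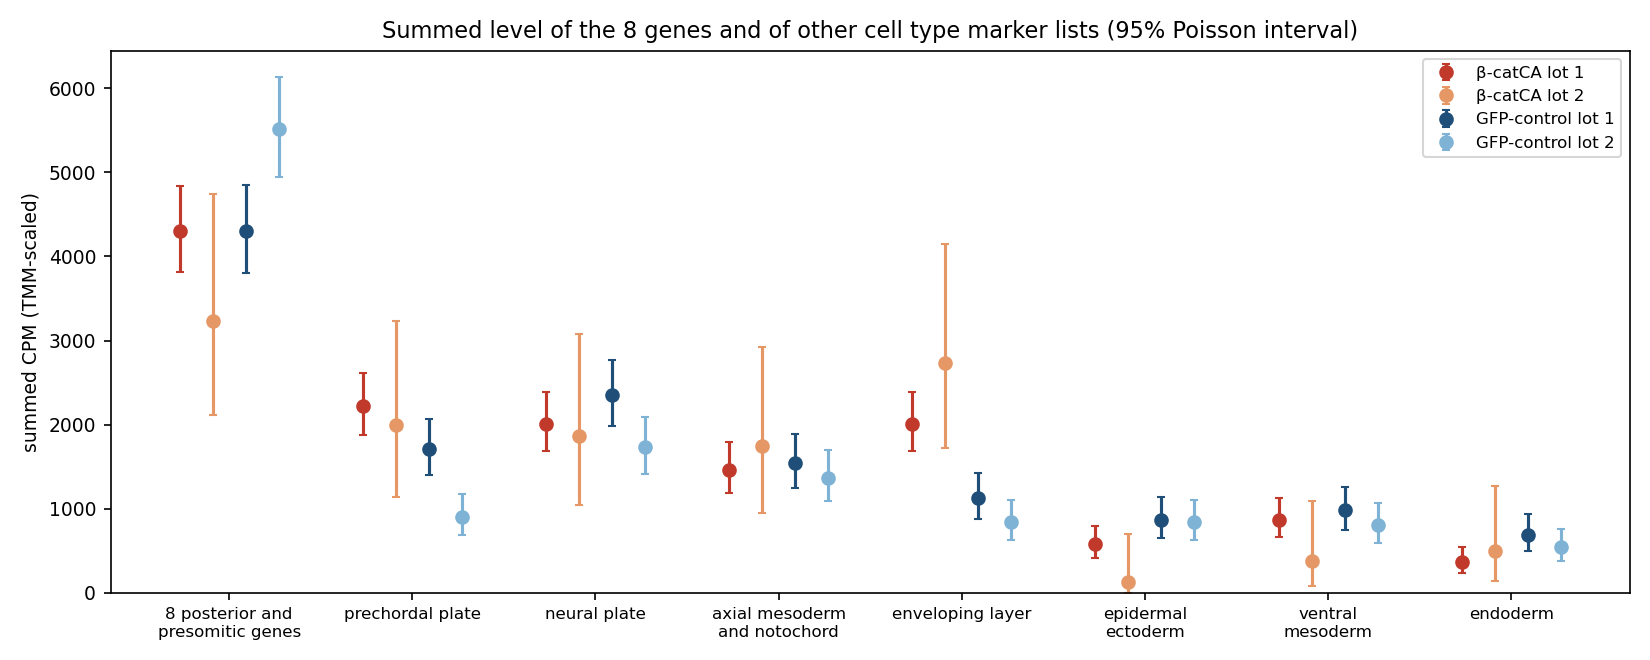
Summed levels (CPM, TMM-scaled, vertical axis) of the 8 genes and of 7 marker lists (horizontal axis) are plotted for each library with 95% exact Poisson intervals. For the 8 genes GFP-control lot 2 is highest at 5516 CPM, and for the prechordal plate list it is lowest at 906 CPM. The gap between the GFP-control lots in that list lies almost wholly in FZD8, with 66 UMIs in lot 1 and 17 in lot 2.

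Other genes of the same pathway came from 6 lists with 79 names, of which 80 rows were matched (some human-style symbols have 2 rows), 57 had a UMI and 14 passed the filter on low counts. edgeR called 0 of the 14 higher and 0 lower, against 0.28% and 0.56% of all tested genes. Fitted changes were negative in 7 and positive in 7, with a median log2 change of 0.01.

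Among the T-box and Wnt nuclear partners, 2 of 7 detected genes were tested. tbxta, the T-box gene of notochord and tailbud that acts beside tbx16, had 22 and 0 UMIs in β-catCA lots 1 and 2 and 29 and 45 in the GFP-control lots. Both β-catCA lots were thus lower, as in 23.6% of the genes tested. The log2 change of tbxta was -1.07 (SE 0.46, adjusted p = 0.40 by edgeR). A pair of genes too sparse for the filter, named after their values were seen, pointed in opposite directions: tbx16l, the T-box paralog of tbx16, had 4 and 0 UMIs against 5 and 11, and LEF1, the nuclear partner of β-catenin, had 5 and 2 against 4 and 2, or 76.2 and 249 CPM against 64.4 and 32.9 CPM (adjusted p = 0.77 for each by edgeR without the filter). TCF7L1, a repressor of Wnt targets, had a log2 change of 0.21 (SE 0.47, adjusted p = 0.94 by edgeR). Upstream signals had 6 genes with a UMI and 7 rows at 0 in all libraries. The Fgf ligand gene FGF8 had 14 and 0 UMIs against 12 and 10, a log2 change of 0.05 (SE 0.57, adjusted p = 0.99 by edgeR). fgf24, an Fgf gene of the margin named here after its values were seen, had 0 UMIs in both β-catCA lots and 4 and 6 in the GFP-control lots (adjusted p = 0.77 by edgeR without the filter). The list's summed UMIs were 30 and 0 for β-catCA lots 1 and 2 and 32 for each GFP-control lot.

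Notch genes had 3 tested members, and 0 passed. LFNG, a glycosyltransferase that modifies Notch, had 19 and 2 UMIs in β-catCA lots 1 and 2 and 15 and 5 for the GFP-control lots, a log2 change of 0.79 (SE 0.54, adjusted p = 0.68 by edgeR). The receptor gene NOTCH1 (ENSDARG00000103554) and the feedback gene NRARP (ENSDARG00000091419) had log2 changes of 0.35 and -0.02 (adjusted p = 0.89 and 0.99 by edgeR). Of the other clock-related genes, 8 had a UMI and only HES6 (ENSDARG00000019335), a Her partner, was tested. It had 49 and 4 UMIs against 36 and 61, a log2 change of -0.18 (SE 0.37, adjusted p = 0.93 by edgeR). The remaining 7 had at most 6 UMIs each over all libraries. The list names dld, dla, her6, her9 and her13 were matched to no row by symbol. These counts thus do not cover every relative of her1 and dlc. Rows that no list name matched, named after their values were seen, did pass the filter. They were the Delta ligand row DLL1 (ENSDARG00000020219), the repressor row HES1 (ENSDARG00000006514) and her8a (ENSDARG00000016363). Their log2 changes were -0.37, 0.96 and -1.66 (adjusted p = 0.87, 0.23 and 0.37 by edgeR). DLL1 and HES1 are human-style symbols, so these rows may hold list genes that the match by symbol missed.

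Presomitic and somite genes, which lie downstream, had 19 detected and 4 tested rows, and 0 passed. Their log2 changes were -0.66 for the apelin receptor gene aplnrb, 0.71 for the ephrin gene EFNB2 (ENSDARG00000020164), 0.34 for the fibronectin gene FN1 (ENSDARG00000019815) and -0.11 for the muscle factor gene MYF5, with edgeR adjusted p-values of 0.72, 0.72, 0.84 and 0.96. MYF5 had 17 and 1 UMIs in β-catCA lots 1 and 2 and 15 and 17 in the GFP-control lots. Segment boundary genes, named after their values were seen, were too sparse for the filter. mespaa, mespab and mespba had 1, 3 and 1 UMIs in all, mespbb had 0 and ripply2 had 4. ripply1, its paralog, had 8 and 1 UMIs in β-catCA lots 1 and 2 and 3 and 1 in the GFP-control lots. These stand for 122 and 124.5 CPM against 48.3 and 16.5 CPM (log2 change 1.68, adjusted p = 0.77 by edgeR without the filter). The value of β-catCA lot 2 rests on 1 UMI, whose exact 95% Poisson interval there is 3.15 to 693.5 CPM. Among posterior homeobox and retinoic acid genes 3 of 7 detected genes were tested. CYP26A1, whose enzyme degrades retinoic acid, had 25 and 3 UMIs against 9 and 4. On the CPM scale these were 381 and 373, the latter from 3 UMIs, against 145 and 65.9. The log2 change of CYP26A1 was 1.82 (95% interval 0.73 to 2.91, adjusted p = 0.10 by edgeR), the largest in size of the 14 tested genes. CYP26A1 cleared the filter on low counts only through the β-catCA lots, where it was high. Its rank among the 14 is therefore no support for a change. It missed the filter of at least 10 UMIs in every library of a group. Without a filter its log2 change was 1.64 (adjusted p = 0.77 by edgeR). The gene passed under none of the alternatives run. ALDH1A2, whose enzyme makes retinoic acid, had 24 and 0 UMIs against 21 and 34, a log2 change of -0.53 (adjusted p = 0.79 by edgeR). It did not pass, nor did the homeobox gene GBX1, with a log2 change of -0.08 (adjusted p = 0.97 by edgeR).

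By their profile over the 4 libraries, the genes most like the sum of the 8 were RTF1, srsf10b and HNRNPU. Likeness was the root mean square distance between log2 CPM centred over the libraries. It was 0.019, 0.053 and 0.055 on the log2 scale, against a median of 0.48 over 1054 genes compared. With 4 libraries and RTF1 at 39 UMIs in all, this likeness is a description only.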

How the data were processed

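RNA was taken up in TRIzol and libraries followed the CEL-Seq2 method, per the labels' protocols. The deposited table holds raw UMI counts, whole numbers, for each Ensembl gene in each of 4 libraries. The submitters' processing notes list Bowtie2 2.3.1, HTSeq 0.6.1 and, as the build, GRCz10; how UMIs were collapsed is not stated there. The 5 rows that name no gene took 52.4% and 58.1% of the counts of β-catCA lots 1 and 2, and 57.7% and 58.3% of those of the GFP-control lots. They stayed out of library sizes and tests.

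Group differences were fitted with edgeR 4.0.16 (R 4.3.3): TMM, filterByExpr with a minimum count of 10, robust quasi-likelihood, group only, Benjamini-Hochberg over all genes fitted. The filter kept 1071 of 8640 detected genes, with 77.6% of the gene UMIs; sparser genes take their value from an unfiltered fit. limma 3.58.1 (voom), DESeq2 1.42.0, other scalings and filters, a lot block and leaving out each library were alternatives. No rank test was run on single values, since 2 libraries against 2 reach at best a two-sided exact permutation p of 0.333. The lots of a group were not copies: chi-square values per degree of freedom were 2.39 (β-catCA) and 1.75 (GFP-control). The β-catCA value includes the row without a symbol that took 19.0% of the gene UMIs of lot 2. No value without that row was computed.

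The genes, lists and tests were chosen with earlier results of these data known. Every gene of the rule is named. From each pathway list, up to 4 tested genes with the smallest p are named, and 3 genes are named for likeness (symbol, at least 20 CPM, prior count 2). Genes outside this rule (fgf24, tbx16l, LEF1, the mesp and ripply genes, FZD8, krt8, DLL1, HES1 and her8a) were named after their values were seen. DLD in capitals, the human name of a metabolic enzyme, was not taken as deltaD. Symbols in capitals are human-style names of zebrafish genes.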

Additional observations from a re-analysis of the deposited data

Results flagged for a closer look

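Among the rows that name no gene, unaligned tags made up 35.8% of all counts in β-catCA lot 2, the library with 26 UMIs of the 8 genes. The GFP-control lots had 21.1% and 22.9% there, and β-catCA lot 1 had 19.9%.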

How the results depend on the processing

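The 8 genes gave 0 calls under all alternatives run. The number of calls over all genes, 9, was 2 with DESeq2 size factors, 1 with upper-quartile factors, 2 with library totals alone, 0 by edgeR on all detected genes (220 with an unadjusted p below 0.05), 2 with at least 10 UMIs in every library of a group, 1 by DESeq2 and 11 by limma-voom. It was from 1 to 15 without single libraries, where the lone library of a group is assumed to vary like the other group. Of 77 alternative values for the 6 filtered genes, 70 kept their sign. The sign turned without GFP-control lot 2 for tbx6 (0.19), msgn1 (0.057) and sp5a (0.62), without β-catCA lot 1 for sp5a (0.64) and her7 (0.59), and without GFP-control lot 1 for her7 (0.03). Without single libraries the log2 changes ran from -0.91 to 0.19 for tbx6, -0.74 to 0.057 for msgn1, -0.89 to 0.64 for sp5a and -0.50 to 0.59 for her7. The cause was not tested. No value is given for tbx6 without β-catCA lot 1, where its group is at 0. In the labels, the lots of the groups share only a number. Their differences, lot 1 minus lot 2, had a correlation of -0.006 between the groups over 1071 genes. β-catCA lot 2 is too shallow for this value to decide whether the lots are paired. With the replicate block, calls over all genes were 2 and sp5a had a log2 change of 0.22. Leaving out the most abundant row, and the alternatives for krt8 and CYP26A1, were chosen after seeing the data. Depth limits her1 and dlc, at most 3 UMIs a library.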
